A study of Mus musculus with 14 samples.

Results

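The clustered histone genes encode the linker histone H1 and the core histones H2A, H2B, H3 and H4. They were taken as every protein-coding gene of the GENCODE mouse release with a symbol that begins with Hist1h, Hist2h, Hist3h or Hist4h, which gave 67 of the 36047 genes in the deposited tables. There were 6 H1 genes, 18 H2A genes, 18 H2B genes, 12 H3 genes and 13 H4 genes. On the mouse build GRCm38/mm10, 54 lay in the Hist1 cluster (chr13:21715763-23934851), 10 in Hist2 (chr3:96219865-96270132), 2 in Hist3 (chr11:58948920-58956830) and 1 in Hist4 (chr6:136801553-136804415).

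Bulk RNA-seq was made from hair follicle stem cells sorted from mouse back skin as CD34+, CD45f+ (as the labels spell it) and Ly-6A/E- cells. Groups were labelled by genotype, Irx5KO or WT, and by postnatal age, with 3 libraries of each genotype at P18 and 4 of each at P20, 14 in all. Irx5 encodes a homeodomain transcription factor. The labels do not give the Irx5 allele, the strain, the sex or whether cells of several animals were pooled. Nothing says that the libraries came from separate animals, so p-values reflect only how far these libraries spread, and that spread may be technical. Each library carries a date code whose meaning is not given. At P18, Irx5KO 1, WT 1 and WT 2 carry the earlier date and Irx5KO 2, Irx5KO 3 and WT 3 the later one, and the deposited data of P18 WT 3 also carry the mark "het". At P20, replicates 1 and 2 of both genotypes (pair 1-2) carry the later date and replicates 3 and 4 (pair 3-4) the earlier one.

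Replication-dependent histone genes are transcribed mainly while a cell copies its DNA, and supply the histones that wrap the new strands into nucleosomes. Their messenger RNAs usually end in a conserved stem-loop in place of a poly(A) tail, and the stem-loop-binding protein SLBP guides the cut behind that stem-loop. Some of these genes are also known to make polyadenylated RNA in cells that have stopped dividing. Hair follicle stem cells rest for long periods and divide as a new growth phase of the follicle begins.

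The labels and the data disagreed on Irx5 itself, so groups are named by their labels throughout. In pair 1-2 the libraries labelled Irx5KO held 30 and 18.1 CPM (counts scaled to a common library total) of Irx5 and those labelled WT 108 and 93.5. In pair 3-4 the order turned, with 181 and 170.1 CPM under the label Irx5KO and 33.2 and 37.5 under the label WT. At P18 the libraries labelled Irx5KO held 48, 70.6 and 73.3 CPM and those labelled WT 93.8, 109.6 and 132 CPM, without overlap. Which part of the gene the allele removes is not given, so the Irx5 level is a limited check of the label. Ddx3y, a Y-linked gene chosen after its values were seen, was at 0.127 to 0.571 CPM in 5 libraries (P18 Irx5KO 1, WT 1 and WT 2, and P20 Irx5KO 1 and WT 1) and at 53.6 to 136 CPM in the other 9. So sex, as Ddx3y marks it, differed between libraries. In pair 1-2 each label had 1 library of each kind, and in pair 3-4 all 4 libraries had Ddx3y. Library totals ran from 13618367 to 70083873 estimated counts, and the histone genes took 0.0433% to 0.9465% of them.

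The stem-loop is shown first because it is the feature that sets these transcripts apart, and because the annotated models differ in whether they hold it. The consensus histone stem-loop of 16 bases, with any base allowed at 4 positions of the stem and loop, was searched on the sense strand of the annotated transcripts. It was present in 42 of the 67 histone genes, against 52 of all 55450 annotated genes (0.0938%). The 16 stem-loop bases are in capitals below, with 5 bases on each side, from the transcript models on GRCm38.
Hist1h1c: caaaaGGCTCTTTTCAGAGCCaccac
Hist1h1e: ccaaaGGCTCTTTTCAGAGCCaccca
Hist1h2ao: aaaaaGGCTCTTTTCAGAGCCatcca
Hist2h2ac: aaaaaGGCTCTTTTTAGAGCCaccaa
Hist1h2bg: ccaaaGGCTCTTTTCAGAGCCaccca
Hist1h2bb: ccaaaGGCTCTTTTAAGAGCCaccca
Hist1h3b: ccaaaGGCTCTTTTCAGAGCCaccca
Hist1h3e: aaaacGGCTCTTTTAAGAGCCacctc
Hist1h4d: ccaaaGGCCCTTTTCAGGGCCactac
Hist1h4i: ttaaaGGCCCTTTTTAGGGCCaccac
The form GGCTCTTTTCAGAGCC was the most frequent, with 26 genes spread over H1 (3), H2A (10), H2B (8) and H3 (5). Of the 6 genes with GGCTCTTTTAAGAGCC, 3 were H3, 2 H2B and 1 H1. The 9 H4 genes that matched carried a different stem, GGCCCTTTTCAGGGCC in 7 and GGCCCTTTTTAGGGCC in 2. Hist2h2ac, an H2A gene, was alone in having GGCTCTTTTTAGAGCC. The other 25 histone models held no match, which says only that these letters are not in the annotated transcript.

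4 promoters follow, 1 each for a gene of the H2A and H4 classes and for 2 H1 genes that differed in how their levels moved. Each is the 250 bases before the RefSeq start on GRCm38.p6, written 5′ to 3′ on the gene's own strand, with CCAAT (or ATTGG, the same letters on the other strand) and TATAAA in capitals.
Hist1h2ai, chr13:21716162-21716411, plus strand: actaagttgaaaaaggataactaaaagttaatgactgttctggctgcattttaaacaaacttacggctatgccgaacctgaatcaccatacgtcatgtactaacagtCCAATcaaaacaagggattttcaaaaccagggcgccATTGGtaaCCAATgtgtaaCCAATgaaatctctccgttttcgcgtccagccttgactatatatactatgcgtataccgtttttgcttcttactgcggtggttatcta
Hist1h1c, chr13:23738557-23738806, plus strand: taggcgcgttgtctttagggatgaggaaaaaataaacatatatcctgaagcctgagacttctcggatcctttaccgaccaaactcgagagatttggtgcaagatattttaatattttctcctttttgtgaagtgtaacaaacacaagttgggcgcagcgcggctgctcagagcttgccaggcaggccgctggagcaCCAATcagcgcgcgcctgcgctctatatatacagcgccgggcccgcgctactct
Hist1h1b, chr13:21780626-21780875, minus strand: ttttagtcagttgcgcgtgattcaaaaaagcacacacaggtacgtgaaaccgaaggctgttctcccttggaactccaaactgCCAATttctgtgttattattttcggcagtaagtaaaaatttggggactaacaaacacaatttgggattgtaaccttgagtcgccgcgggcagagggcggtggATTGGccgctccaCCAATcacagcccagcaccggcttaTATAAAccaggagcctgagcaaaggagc
Hist1h4k, chr13:21750554-21750803, minus strand: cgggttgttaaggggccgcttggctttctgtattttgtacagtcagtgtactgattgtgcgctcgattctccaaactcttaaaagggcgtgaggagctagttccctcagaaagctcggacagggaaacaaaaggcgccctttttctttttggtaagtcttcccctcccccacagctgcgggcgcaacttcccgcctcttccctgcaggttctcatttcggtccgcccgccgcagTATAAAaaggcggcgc
A RefSeq promoter was matched for 62 of the 67 genes. CCAAT on either strand was present in 82.3% of those 62 windows and in 33.8% of all 32851 RefSeq promoters of that length. All 6 H1, 18 H2A and 16 H2B windows held it, as did 80% of the H3 windows and 25% of the H4 windows. TATAAA was present in 46.8%, against 12.4% of all promoters, and the octamer ATTTGCAT in 22.6%, against 1.6%. The octamer was found in 7 of 18 H2A and 7 of 16 H2B windows and in no H1, H3 or H4 window. In 10 cases a window overlapped that of another histone gene, always an H2A gene with an H2B gene read in the opposite direction. The Hist1h2ai window shares 228 bases with that of Hist1h2bl.

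Summed over all 67 genes, the histone level was low in the pair 1-2 libraries labelled Irx5KO and high in their WT partners, and the order was the opposite in pair 3-4. The sums were 4173 and 2211 CPM in WT and 526 and 458 CPM in Irx5KO of pair 1-2. In pair 3-4 they were 1324 and 1445 CPM in WT and 5840 and 9223 CPM in Irx5KO. The groups did not overlap within either pair. The sum was 6.48-fold lower under the label Irx5KO in pair 1-2, a log2 difference of -2.70 ± 0.36 (SE, adjusted p = 0.00288). It was 5.44-fold higher in pair 3-4, a log2 difference of 2.44 ± 0.36 (SE, adjusted p = 0.000961). The difference between the pairs was 5.14 ± 0.51 (SE, adjusted p = 2.01e-05) on the log2 scale. All of these p-values come from edgeR's quasi-likelihood test with Benjamini-Hochberg adjustment over all genes tested. The call for pair 1-2 was lost without P20 Irx5KO 1 (-2.73, adjusted p = 0.0831), without P20 Irx5KO 2 (-2.56, adjusted p = 0.172) and when only the P20 libraries compared were fitted (-2.66, adjusted p = 0.084). In bulk RNA, fewer cells of a type and less RNA per cell cannot be told apart.

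**Figure D1:**
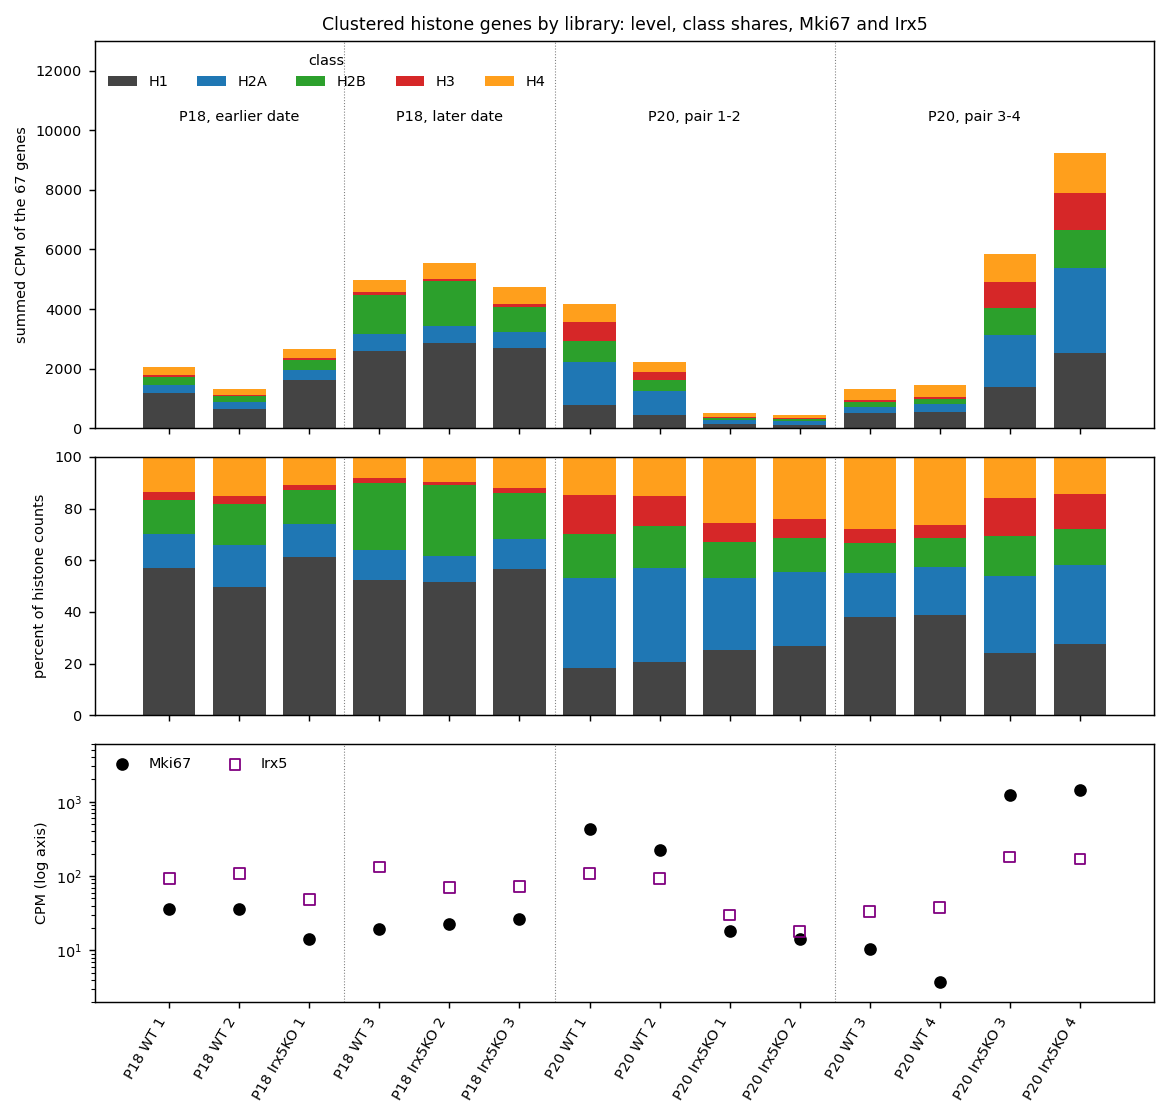
Summed CPM of the 5 histone classes per library (top), the percent of histone counts taken by each class (middle), and the CPM of Mki67 and Irx5 on a log axis (bottom), for the 14 libraries grouped by age and date. H1 takes 49.8% to 61.4% of the histone counts in the 6 P18 libraries and 18.5% to 38.7% in the 8 P20 libraries, and Irx5KO 3 and 4 of P20 have the largest sums, 5840 and 9223 CPM.

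Mki67, a marker of dividing cells, moved with the histone sum at P20. It stood at 429 and 228 CPM in WT and 18.5 and 14.4 CPM in Irx5KO of pair 1-2, and at 10.5 and 3.75 CPM in WT and 1252 and 1418 CPM in Irx5KO of pair 3-4. At P18 the 6 libraries held 14.1 to 36.5 CPM of Mki67 but 1320 to 5550 CPM of histone counts, so at P18 high histone sums came with low Mki67. The part of Mki67-positive cells in the histone levels was not tested.

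Each of the 5 classes fell in pair 1-2 and rose in pair 3-4 as a sum of counts, under the label Irx5KO. The H3 sum moved furthest. It was 622 and 261 CPM in WT and 39.9 and 33 CPM in Irx5KO of pair 1-2, a log2 difference of -3.60 ± 0.42 (SE, adjusted p = 0.00148). In pair 3-4 it was 71.3 and 76 CPM in WT and 852 and 1265 CPM in Irx5KO, a difference of 3.85 ± 0.42 (SE, adjusted p = 0.000126). H2A followed with -3.03 ± 0.34 (SE, adjusted p = 0.00061) in pair 1-2 and 3.20 ± 0.34 (SE, adjusted p = 6.15e-05) in pair 3-4, and H2B with -2.99 ± 0.38 (SE, adjusted p = 0.00148) and 2.79 ± 0.37 (SE, adjusted p = 0.000437). The smallest differences were those of H1, -2.26 ± 0.36 (SE, adjusted p = 0.0075) and 1.89 ± 0.36 (SE, adjusted p = 0.0058), and of H4, -1.96 ± 0.32 (SE, adjusted p = 0.0075) and 1.59 ± 0.31 (SE, adjusted p = 0.00702). Whether one class moved more than another was not tested. Class sums are reported because reads are shared between near-identical copies. A sum removes the split between copies of 1 class, but not that with other classes or with genes outside the 67. Hist1h1e, for example, shares 24.5% of its stretches of 31 bases with the H2B gene Hist1h2be.

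**Figure D2:**
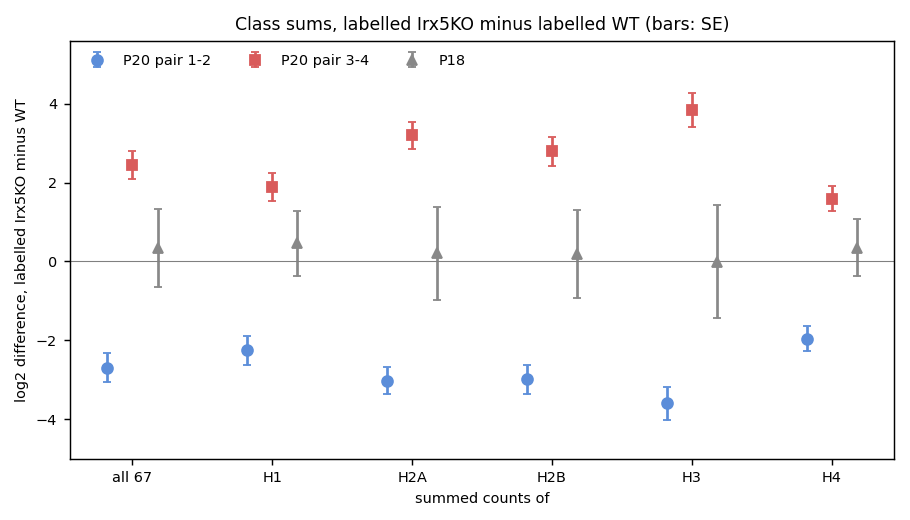
Log2 difference in summed counts, label Irx5KO minus label WT, with its standard error, for each histone class in P20 pair 1-2, P20 pair 3-4 and P18. The 5 classes lie between -3.60 and -1.96 in pair 1-2 and between 1.59 and 3.85 in pair 3-4, and the P18 values lie near 0 with wide errors. The P18 errors come from a fit that also holds the difference between the P20 pairs.

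Gene by gene, 66 of the 67 members passed the filter on low counts; Hist1h2ba, a testis H2B gene, did not. In pair 1-2, 29 of the 66 were lower under the label Irx5KO and 0 higher at an adjusted p under 0.05, where 0.516% of all 24592 genes tested were lower and 0.138% higher. The members' median log2 difference was -3.18, that of all genes -0.341. In pair 3-4, 37 were higher and 0 lower, against 2.2% and 2.62% of all genes, with a median of 3.20 for the members and 0 for all genes. The difference between the pairs passed for 46 members, all of them higher in pair 3-4, against 2.68% of all genes higher and 2.5% lower. At an unadjusted p under 0.05, 54 members passed in each pair, as did 1703 genes of all in pair 1-2 and 4172 in pair 3-4. With the 3 genes that had a group at 0 counts set to their bounds, the medians were -3.11 and 3.20. Without P20 Irx5KO 1 the count in pair 1-2 was 12, without Irx5KO 2 it was 8 and without WT 1 it was 18, and without WT 3 the count in pair 3-4 was 17. Libraries did not overlap in pair 1-2 for 59 of the 67 genes, both Irx5KO libraries being below both WT libraries (17.3% of all genes tested), and in pair 3-4 for 59 with both Irx5KO libraries above (15.7%) and 2 with both below (24.8%). Pair 1-2 and pair 3-4 share no library. Of the 66, 28 were called in both pairs, lower in 1-2 and higher in 3-4; 1 was called in pair 1-2 alone, 9 in pair 3-4 alone and 28 in neither.

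**Figure D3:**
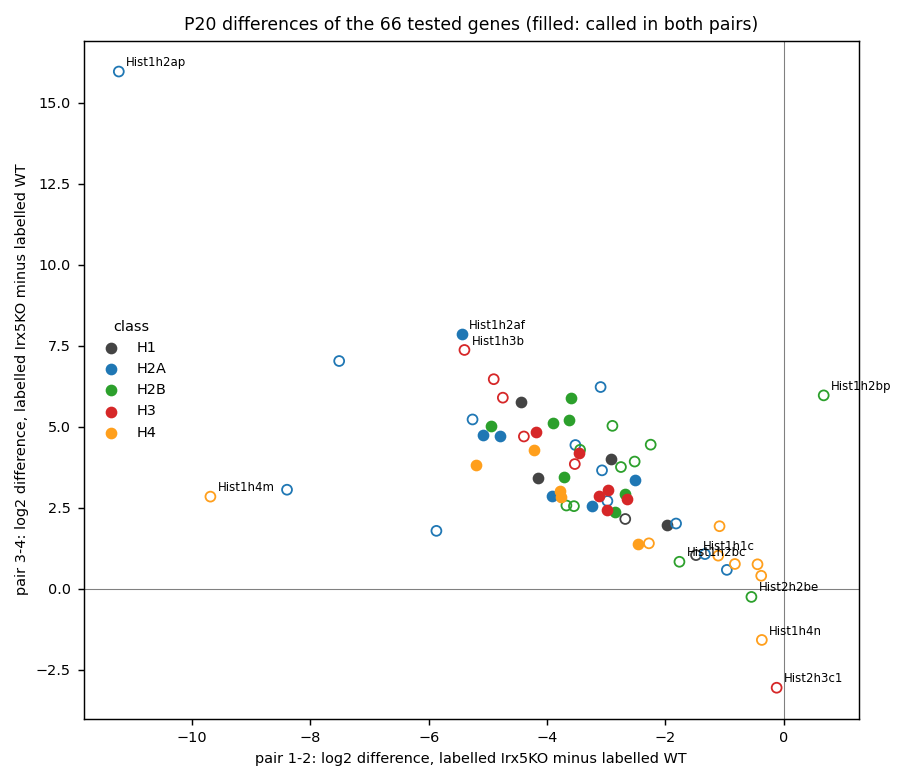
Log2 difference under the label Irx5KO in P20 pair 1-2 (horizontal) against that in pair 3-4 (vertical), 1 point per histone gene, coloured by class and filled where the gene was called in both pairs. Of the 66 genes tested, 62 lie below 0 in pair 1-2 and above 0 in pair 3-4, and 28 are filled; the points of Hist1h2ap, Hist1h2ad and Hist1h2aa, which had a group at 0 counts, are fitted values and no bounds.

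Among the linker histones, 4 of 6 were lower in pair 1-2 (0.516% of all genes tested) and 4 of 6 higher in pair 3-4 (2.2%). Linker histones bind the DNA between nucleosomes. Hist1h1c, the H1 gene with the highest mean TPM (a level per transcript length, 466 over the 14 libraries), held 280.3 and 156 CPM in WT and 80.9 and 75.3 CPM in Irx5KO of pair 1-2. In pair 3-4 it held 327 and 314 CPM in WT and 418 and 901 CPM in Irx5KO. The groups did not overlap in either pair, but neither difference passed the test, with -1.48 ± 0.39 (SE, adjusted p = 0.146) and 1.04 ± 0.38 (SE, adjusted p = 0.157). At P18 it was at 792, 1621 and 1419 CPM in Irx5KO and 549.9, 301 and 1336 CPM in WT. The difference between the pairs was 2.52 ± 0.54 (SE, adjusted p = 0.0123).

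Hist1h1e, another somatic H1, held 147 and 90.7 CPM in WT and 32 and 28.4 CPM in Irx5KO of pair 1-2, and 137 and 190.1 CPM in WT and 516 and 751 CPM in Irx5KO of pair 3-4. Its differences were -1.98 ± 0.34 (SE, adjusted p = 0.00982) and 1.96 ± 0.33 (SE, adjusted p = 0.00282). P18 levels of Hist1h1e were 514, 741 and 834 CPM in Irx5KO and 364, 208 and 766 CPM in WT. Hist1h1a, the third by TPM, was at 89.7 and 44.8 CPM in WT and 9 and 8.81 CPM in Irx5KO of pair 1-2, and at 6.69 and 11.2 CPM in WT and 111 and 174 CPM in Irx5KO of pair 3-4. Its differences were -2.92 ± 0.42 (SE, adjusted p = 0.0033) and 4.00 ± 0.44 (SE, adjusted p = 8.06e-05). At P18, Hist1h1a was low, 21.1, 12.9 and 20.1 CPM in Irx5KO and 18.6, 11.3 and 14.8 CPM in WT, in the libraries where Hist1h1c and Hist1h1e were high. Hist1h1b, whose promoter is printed above beside that of Hist1h1c, was at 70.6 and 48.6 CPM in WT and 2.93 and 2.57 CPM in Irx5KO of pair 1-2, and at 2.4 and 2.96 CPM in WT and 109 and 181 CPM in Irx5KO of pair 3-4. It differed by -4.44 ± 0.44 (SE, adjusted p = 0.000191) and 5.76 ± 0.47 (SE, adjusted p = 8.9e-06), and its P18 libraries held 8.63 to 23.3 CPM. Hist1h1c, Hist1h1d and Hist1h1e together made up 48.0% to 60.2% of all histone counts at P18. At P20 they made up 14.6% and 16.4% in WT 1 and 2, 37.5% and 37.7% in WT 3 and 4, and 20.2% to 24.5% in the 4 Irx5KO libraries. A share of counts also scales with transcript length.

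**Figure D4:**
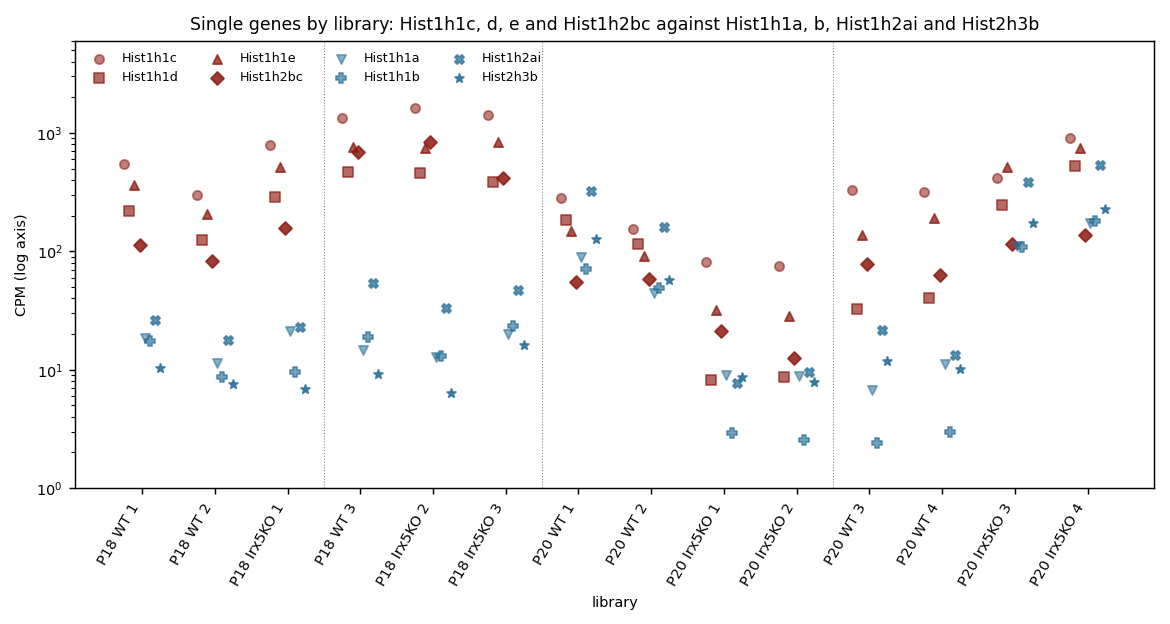
CPM on a log axis of 4 histone genes that were high at P18 (Hist1h1c, Hist1h1d, Hist1h1e and Hist1h2bc) and 4 that were low there (Hist1h1a, Hist1h1b, Hist1h2ai and Hist2h3b), 1 point per library. The first 4 were chosen after their values were seen; Hist1h2ai reaches 387 and 535 CPM in P20 Irx5KO 3 and 4 and stays at or under 53.9 CPM in all P18 libraries.

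In the H2A class, 6 of 18 genes were lower in pair 1-2 (0.516% of all genes tested) and 8 of 18 higher in pair 3-4 (2.2%). Hist1h2ai, the H2A gene with the highest mean TPM (404), was at 322 and 159 CPM in WT and 7.68 and 9.65 CPM in Irx5KO of pair 1-2. In pair 3-4 it was at 21.6 and 13.2 CPM in WT and 387 and 535 CPM in Irx5KO. Its log2 differences were -4.79 ± 0.42 (SE, adjusted p = 7.43e-05) and 4.72 ± 0.42 (SE, adjusted p = 1.41e-05). The libraries of each pair stood far apart, while the 6 P18 libraries, 22.8, 33 and 47.2 CPM in Irx5KO and 26.4, 17.9 and 53.9 CPM in WT, lay far below the high P20 values. Hist2h2aa2 went from 221 and 136 CPM in WT to 71.2 and 70.9 CPM in Irx5KO of pair 1-2, and from 82.6 and 100.2 CPM in WT to 104 and 280.3 CPM in Irx5KO of pair 3-4. Neither of its differences passed the test, at -1.33 ± 0.37 (SE, adjusted p = 0.211) and 1.07 ± 0.37 (SE, adjusted p = 0.134). Its P18 libraries held 123.2, 160.8 and 144.6 CPM in Irx5KO and 103.5, 87.7 and 130.2 CPM in WT. Hist2h2aa2 has no 31-base stretch of its own, since all of its sequence is also in Hist2h2aa1, so the split of reads between the pair of copies is uncertain. Summed, Hist2h2aa1 and Hist2h2aa2 held 263 and 164 CPM in WT and 83.6 and 78.4 CPM in Irx5KO of pair 1-2, and 117 and 147 CPM in WT and 205 and 509 CPM in Irx5KO of pair 3-4.

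Hist1h2ao shares 93.8% of its 31-base stretches with Hist1h2ap, so the split of counts between these H2A genes is uncertain. Hist1h2ao alone was at 241 and 116 CPM in WT and 14.1 and 9.62 CPM in Irx5KO of pair 1-2, and at 25.5 and 36.3 CPM in WT and 134 and 314 CPM in Irx5KO of pair 3-4. Its differences were -3.91 ± 0.57 (SE, adjusted p = 0.0132) and 2.86 ± 0.54 (SE, adjusted p = 0.0151). Its P18 libraries held 82.7, 131.4 and 87.3 CPM in Irx5KO and 61.3, 29.9 and 120.2 CPM in WT. Hist1h2ap had 0 counts in both WT libraries of pair 3-4 and 247 and 225 CPM in the Irx5KO libraries, which makes it at least 3668-fold higher against a floor of 3 counts over the WT group, which covers counting error only. Together the genes held 25.5 and 36.3 CPM in WT and 381 and 539 CPM in Irx5KO of pair 3-4, so the bound for Hist1h2ap alone does not describe the copies together. Hist1h2af had the largest called change of any member with counts in each group, from 161 and 68.5 CPM in WT to 3.71 and 1.55 CPM in Irx5KO of pair 1-2 and from 1.56 and 0.786 CPM in WT to 208 and 355 CPM in Irx5KO of pair 3-4. That was -5.45 ± 0.57 (SE, adjusted p = 0.00138) in pair 1-2, 7.86 ± 0.65 (SE, adjusted p = 4.88e-05) in pair 3-4 and 13.30 ± 0.86 (SE, adjusted p = 4.83e-06) for the difference between them. Only 5.69% of the 31-base stretches of Hist1h2af are its own and 85.9% are shared with Hist1h2ad, so this change too rests on an uncertain split of counts. Hist1h2ad and Hist1h2aa had 0 counts in both Irx5KO libraries of pair 1-2, at least 28.5-fold and 4.88-fold lower than in WT, bounds that cover counting error only. The WT libraries of that pair held only 21 and 50 counts of Hist1h2ad and 6 and 7 of Hist1h2aa. Hist1h2aa was not called. Hist1h2ad shares 60.9% of its stretches with Hist1h2ah, and together these genes held 19.0 and 26.4 CPM in WT and 0 and 5.02 CPM in Irx5KO of pair 1-2.

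The H2B class had 8 of 17 genes tested lower in pair 1-2 (0.516% of all genes tested) and 12 of 17 higher in pair 3-4 (2.2%). Hist2h2bb, first by mean TPM (231), has no 31-base stretch of its own, yet shares only 4.56% of them with the closest other member on the same strand, so the split of its counts is uncertain. It was at 117 and 56.7 CPM in WT and 11.8 and 15.3 CPM in Irx5KO of pair 1-2, and at 16.2 and 23 CPM in WT and 129.8 and 166 CPM in Irx5KO of pair 3-4. Its differences were -2.68 ± 0.37 (SE, adjusted p = 0.0027) and 2.92 ± 0.38 (SE, adjusted p = 0.000312). Hist1h2bg was at 104 and 51.4 CPM in WT and 7.48 and 4.33 CPM in Irx5KO of pair 1-2, and at 9.55 and 17.4 CPM in WT and 120.3 and 172 CPM in Irx5KO of pair 3-4, with differences of -3.72 ± 0.57 (SE, adjusted p = 0.0181) and 3.45 ± 0.57 (SE, adjusted p = 0.00657). Both genes separated the labels in opposite directions in the pairs. At P18, Hist2h2bb held 28.2, 90 and 95.5 CPM in Irx5KO and 28.8, 16.6 and 66.8 CPM in WT. Hist1h2bg held 29, 155.9 and 71.3 CPM in Irx5KO and 32.55, 17.4 and 152.6 CPM in WT of that age.

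Hist1h2bc was the only member called lower in pair 1-2 and not called in pair 3-4, where it moved in the direction of its class without overlap. It was at 55.2 and 58.8 CPM in WT and 21.1 and 12.5 CPM in Irx5KO of pair 1-2, and at 78.1 and 63.2 CPM in WT and 116 and 136 CPM in Irx5KO of pair 3-4. The differences were -1.76 ± 0.34 (SE, adjusted p = 0.0248) and 0.84 ± 0.33 (SE, adjusted p = 0.197). At P18 it ranged widely, 159, 833 and 418 CPM in Irx5KO and 113, 82.6 and 694 CPM in WT, and the 3 later-date libraries were the 3 highest of all 14. Hist1h2bp was the only member with a positive difference in pair 1-2, from 1.04 and 0.948 CPM in WT to 0.0863 and 3.11 CPM in Irx5KO, where the groups overlap and the test did not pass (0.68 ± 1.30 SE, adjusted p = 0.942). It rose in pair 3-4 from 0.166 and 0.242 CPM in WT to 11.3 and 14.3 CPM in Irx5KO (5.97 ± 1.62 SE, adjusted p = 0.047). Hist2h2be had a difference of -0.25 ± 1.66 (SE, adjusted p = 1) in pair 3-4, from 0.599 and 3.33 CPM in WT and 3.3 and 0 CPM in Irx5KO, which overlap.

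In the H3 class, 6 of 12 genes were lower in pair 1-2 (0.516% of all genes tested) and 7 of 12 higher in pair 3-4 (2.2%). H3 and H4 form the core on which a nucleosome is first laid down. Hist2h3b, highest by mean TPM (126) and without a 31-base stretch of its own, was at 126 and 57 CPM in WT and 8.74 and 7.85 CPM in Irx5KO of pair 1-2. In pair 3-4 it was at 11.8 and 10.2 CPM in WT and 174 and 229.7 CPM in Irx5KO. Its differences were -3.47 ± 0.47 (SE, adjusted p = 0.00311) and 4.20 ± 0.48 (SE, adjusted p = 0.00021), and its low P20 values lay within the P18 range, 6.82, 6.41 and 16.3 CPM in Irx5KO and 10.3, 7.57 and 9.26 CPM in WT. Hist1h3b, the gene whose stem-loop is printed above, was at 104 and 45.3 CPM in WT and 3.54 and 0 CPM in Irx5KO of pair 1-2, and at 1.6 and 0.363 CPM in WT and 138 and 206 CPM in Irx5KO of pair 3-4. The groups lay far apart, but the fitted errors were wide and neither difference passed the test (-5.40 ± 1.62 SE, adjusted p = 0.47 and 7.37 ± 1.79 SE, adjusted p = 0.0826). P18 levels of Hist1h3b were 0.685, 4.998 and 6.22 CPM in Irx5KO and 5.13, 5.04 and 5.04 CPM in WT. Hist1h3i was at 51.4 and 26.5 CPM in WT and 5.67 and 4.15 CPM in Irx5KO of pair 1-2. In pair 3-4 it was at 7.02 and 9.5 CPM in WT and 45.8 and 42.7 CPM in Irx5KO. Its differences were -2.99 ± 0.55 (SE, adjusted p = 0.0172) and 2.42 ± 0.53 (SE, adjusted p = 0.016). Its P18 libraries held 6.675, 2.75 and 7.91 CPM in Irx5KO and 7.25, 4.22 and 4.93 CPM in WT. Hist2h3c1, which has no 31-base stretch of its own and shares 35.4% with its closest other member, Hist2h3c2, went the other way in pair 3-4, from 1.66 and 1.69 CPM in WT to 0.412 and 0 CPM in Irx5KO, and the difference of -3.05 ± 1.75 (SE, adjusted p = 0.416) did not pass.

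In the H4 class, 5 of 13 genes were lower in pair 1-2 (0.516% of all genes tested) and 6 of 13 higher in pair 3-4 (2.2%). Hist1h4b, first by mean TPM (205), was at 83.3 and 53.2 CPM in WT and 7.02 and 3.08 CPM in Irx5KO of pair 1-2, and at 24.5 and 24.9 CPM in WT and 142 and 212 CPM in Irx5KO of pair 3-4. Its differences were -3.76 ± 0.41 (SE, adjusted p = 0.000432) and 2.84 ± 0.40 (SE, adjusted p = 0.00066). Its P18 libraries held 35.9, 76.6 and 71.3 CPM in Irx5KO and 27, 16.4 and 42.4 CPM in WT. Hist1h4d held 159.5 and 80.9 CPM in WT and 23.4 and 20.4 CPM in Irx5KO of pair 1-2, and 124 and 125 CPM in WT and 292 and 352 CPM in Irx5KO of pair 3-4. Its differences were -2.46 ± 0.35 (SE, adjusted p = 0.00311) and 1.37 ± 0.34 (SE, adjusted p = 0.0291), and in both pairs the groups did not overlap. P18 levels of Hist1h4d were 69.9, 174 and 167.5 CPM in Irx5KO and 62.1, 32.3 and 124.4 CPM in WT. Hist1h4k, whose promoter is printed above, was at 62.2 and 20.3 CPM in WT and 0.92 and 1.31 CPM in Irx5KO of pair 1-2. In pair 3-4 it was at 2.36 and 10.8 CPM in WT and 112 and 74.5 CPM in Irx5KO. Its differences were -5.20 ± 0.92 (SE, adjusted p = 0.049) and 3.83 ± 0.85 (SE, adjusted p = 0.0378). Its P18 libraries held 7.93, 18.6 and 17.7 CPM in Irx5KO and 8.74, 2.96 and 19.55 CPM in WT.

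Hist1h4n and Hist1h4m share 85.3% and 91.7% of their 31-base stretches, and their separate values ran against each other. Hist1h4n was at 51.9 and 23.8 CPM in WT and 1.65 and 23.7 CPM in Irx5KO of pair 3-4, a difference of -1.58 ± 1.04 (SE, adjusted p = 0.53) that did not pass. Hist1h4m was at 0 and 31.4 CPM in WT and 75.3 and 149 CPM in Irx5KO of the same pair, with 0 in 1 WT library. Summed over both, WT held 51.9 and 55.2 CPM and Irx5KO 77 and 172 CPM in Irx5KO of pair 3-4, and WT 56.9 and 21.7 CPM and Irx5KO 10.8 and 7.82 CPM in pair 1-2. The sums followed the direction of the class in both pairs.

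**Figure D5:**
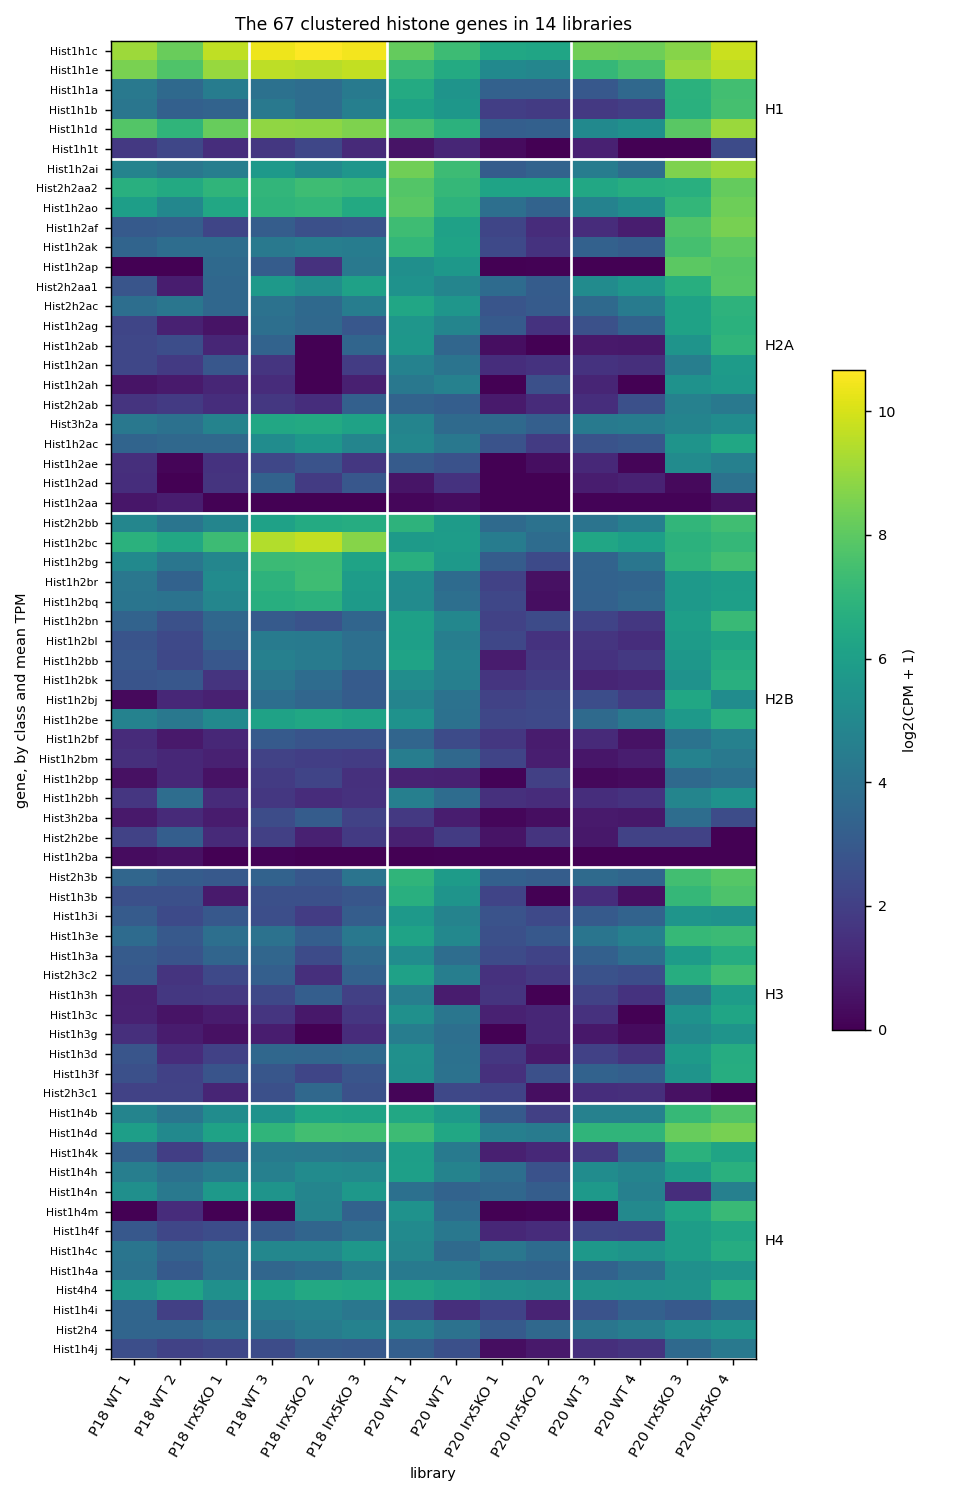
Level of each of the 67 histone genes, as log2(CPM + 1), in the 14 libraries, with genes grouped by class. Hist1h1c, Hist1h1d, Hist1h1e and Hist1h2bc are among the brightest rows in the P18 libraries, whereas most H2A and H3 rows are bright mainly in P20 Irx5KO 3 and 4 and P20 WT 1 and 2.

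At P18 no histone gene passed the test between the labels. By edgeR, 0 of 66 members were called and 0 had an unadjusted p under 0.05, where 0% of all genes were called and 977 genes had an unadjusted p under 0.05. DESeq2 and limma voom also called 0 members. The histone sum was 2647, 5550 and 4732 CPM in Irx5KO and 2061, 1320 and 4976 CPM in WT, so the groups overlap widely, with a log2 difference of 0.35 ± 0.99 (SE, adjusted p = 0.973). That error comes from a fit in which all 14 libraries share an estimate of the spread. It therefore also holds the opposite differences of the P20 pairs. The edgeR calls at P18 rest on that fit too, so 0 calls do not measure the P18 libraries alone. Of the class sums, H1 differed most, by 0.46 ± 0.82 (SE, adjusted p = 0.951). Members had a median of 0.163 and all genes one of -0.546.

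The P18 libraries divided by date, and by Ddx3y in the same way. Ddx3y was at 0.534 to 0.571 CPM in the 3 earlier-date libraries and at 94.2 to 136 CPM in the 3 later-date ones, so date and sex cannot be told apart there. In 38 of the 67 genes, all 3 later-date libraries were above all 3 earlier-date ones (6.7% of all genes tested), and in 1 gene all 3 were below (11.3%). The sums were 1320 to 2647 CPM at the earlier date and 4732 to 5550 CPM at the later one. Within the earlier date, the label Irx5KO stood 0.65 ± 0.41 (SE, adjusted p = 0.554) above WT on the log2 scale, with 1 library against 2. Within the later date the difference was 0.05 ± 0.42 (SE, adjusted p = 1), with 2 libraries against 1. No member was called within either date by edgeR (0% of all genes called higher at each date, 0.00407% lower at the earlier date and 0% lower at the later one). H1f0, a replacement linker histone chosen after its values were seen, followed the same order, with 224 to 393 CPM at the earlier date and 811 to 992 CPM at the later.

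With both P20 pairs pooled and the date as a term, no difference between the labels passed. This comparison averages differences of opposite sign, -2.70 in pair 1-2 and 2.44 in pair 3-4 for the sum of all members. Its error also holds that disagreement, so 0 calls here do not describe either pair alone. The log2 difference of the sum was -0.13 ± 1.18 (SE, adjusted p = 0.993), and edgeR called 0 of 66 members in each direction (0% of all genes). At an unadjusted p under 0.05, 1 member passed, as did 1082 of all 24592 genes. DESeq2 called 0 and limma voom 5, all higher. The share of all genes called by limma voom is not given here, so its count does not set the members apart.

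Between the ages, the classes made up different shares of the histone counts, and age and date cannot be told apart in these libraries. H1 took 49.8% to 61.4% of the histone counts in the 6 P18 libraries and 18.5% to 38.7% in the 8 P20 libraries. H3 took 1.13% to 3.28% at P18 and 5.26% to 14.9% at P20. The ranges of both classes did not overlap between the ages. In WT, the summed level changed by -0.28 ± 0.92 (SE, adjusted p = 0.872) from P18 to P20, and in Irx5KO by -0.10 ± 0.93 (SE, adjusted p = 1). The fit behind these comparisons pooled the P20 pairs of each label, so its errors also hold the difference between the pairs. edgeR called 0 of 66 members in WT (0.0691% of all genes higher, 0.126% lower) and 0 in Irx5KO (0.61% higher, 0.96% lower). At an unadjusted p under 0.05, 2 and 12 members passed, as did 2381 and 3320 of all 24592 genes. DESeq2 called 0 and 6, and limma voom 9 and 11. The shares of all genes called by these 2 methods are not given here, so these counts do not set the members apart. The H3 sum differed by 2.01 ± 1.25 (SE, adjusted p = 0.638) in WT and 2.92 ± 1.30 (SE, adjusted p = 0.366) in Irx5KO, and the H1 sum by -1.37 ± 0.88 (SE, adjusted p = 0.643) and -1.19 ± 0.88 (SE, adjusted p = 0.617), none of which passed.

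Against P18, the pairs of each label differed in different classes, and these comparisons share the P18 libraries. WT 1 and 2 of P20 had 20 members higher (1.68% of all genes) and 3 lower (0.74%) than WT at P18. The sums of H3 (2.81 ± 0.35 SE, adjusted p = 0.0012) and H2A (1.81 ± 0.28 SE, adjusted p = 0.00468) were higher, and the H1 sum, -1.08 ± 0.33 (SE, adjusted p = 0.11), did not pass. Hist1h1e was 1 of the 3 lower genes, at -1.74 ± 0.31 (SE, adjusted p = 0.00895). WT 3 and 4 had 1 member higher (2.5%) and 8 lower (5.99%), with lower sums of H1 (-1.28 ± 0.33 SE, adjusted p = 0.028) and H2B (-1.43 ± 0.33 SE, adjusted p = 0.0189). Hist1h4c was the gene that was higher, at 1.43 ± 0.39 (SE, adjusted p = 0.0383), and Hist1h2bk had the largest called fall among genes with a mean of at least 1 log2 CPM, -2.81 ± 0.48 (SE, adjusted p = 0.00506).

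Irx5KO 1 and 2 of P20 had 0 members higher (1.61%) and 20 lower (1.72%) than Irx5KO at P18. The total was lower, at -3.07 ± 0.36 (SE, adjusted p = 0.000642), with H1 at -4.17 ± 0.38 (SE, adjusted p = 7.57e-05) and H2B at -3.55 ± 0.37 (SE, adjusted p = 0.000265). The H3 sum, -0.97 ± 0.36 (SE, adjusted p = 0.202), did not pass. Hist1h1d, a somatic H1, was at 288, 462 and 388 CPM in the P18 libraries labelled Irx5KO and 8.14 and 8.63 CPM in Irx5KO 1 and 2 of P20, a difference of -5.47 ± 0.43 (SE, adjusted p = 1.65e-05). Irx5KO 3 and 4 had 36 members higher (5.88%) and 1 lower (9.04%) than Irx5KO at P18. The sums of H3 (3.89 ± 0.36 SE, adjusted p = 1.86e-05), H2A (2.29 ± 0.29 SE, adjusted p = 0.000132) and H4 (1.35 ± 0.27 SE, adjusted p = 0.00457) were higher, whereas H1 differed by -0.24 ± 0.32 (SE, adjusted p = 0.707) and did not pass.

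The transcript models divide the genes in another way, which was set after values were seen and is a description. The model ran more than 150 bases past the stem-loop in 21 genes, ended within 150 bases of it in 21, and held no stem-loop match in 25. Hist1h1c has 840 annotated bases after the stem-loop, Hist1h1d 4884, Hist1h1e 1153, Hist1h4d 770 and Hist4h4 2445. From P18 to P20 in Irx5KO 3 and 4, the median log2 difference was 1.02 for the genes with long tails, 3.12 for those with short ones and 2.96 for those without a match. In WT 1 and 2 the medians were 0.23, 2.03 and 2.20. In WT 3 and 4 they were closer together, at -0.97, -0.72 and -0.76, and in Irx5KO 1 and 2 they were -2.53, -1.24 and -1.99. Between the labels the groups of models moved alike in direction, with medians of -2.68, -3.23 and -3.59 in pair 1-2 and 2.37, 3.93 and 3.84 in pair 3-4. Library preparation used an Illumina TruSeq kit, and whether poly(A) RNA was selected is not given.

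Where copies that can be told apart by sequence were called, the direction was that of the class sums. In H1 a median of 96.2% of a gene's 31-base stretches was found in no other annotated transcript of another gene, against 22.9% in H2A, 42.6% in H2B, 37.0% in H3 and 52.1% in H4. Of all genes tested, 0.516% were lower in pair 1-2, 2.2% higher in pair 3-4 and 2.68% higher in the difference between the pairs. These shares apply to the counts by sequence, cluster and octamer alike. Of the 25 genes tested with at least 50% unique stretches, 11 were lower in pair 1-2, 12 higher in pair 3-4 and 18 higher in the difference. Of the 41 with fewer, 18, 25 and 28 were. By cluster, the Hist1 genes tested had 26 of 53 lower in pair 1-2 and 33 of 53 higher in pair 3-4, and the Hist2 genes 3 and 4 of 10. Within H2A and H2B, 7 of 13 genes with the octamer in the promoter were lower in pair 1-2 and 8 higher in pair 3-4, as were 6 and 12 of the 20 without it.

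In the list of 17 genes of histone gene expression and 3′ end formation, 0 were called in pair 1-2 in either direction (0.516% of all genes lower, 0.138% higher). In pair 3-4, 1 was higher (2.2% of all genes), Cstf2, a polyadenylation factor (0.94 ± 0.26 SE, adjusted p = 0.0496). With 17 genes, these counts do not set the list apart from all genes. Slbp, which encodes the stem-loop-binding protein, was at 69 and 51.9 CPM in WT and 85.6 and 122 CPM in Irx5KO of pair 1-2, and at 61.4 and 46.8 CPM in WT and 83.2 and 95.4 CPM in Irx5KO of pair 3-4. Its differences had the same sign in both pairs and did not pass (0.78 ± 0.28 SE, adjusted p = 0.48 and 0.72 ± 0.28 SE, adjusted p = 0.192). Npat, a coactivator of histone gene transcription, was at 16.8 to 40.7 CPM over the 14 libraries, with 0.33 ± 0.33 (SE, adjusted p = 0.878) and 0.50 ± 0.33 (SE, adjusted p = 0.492).

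Genes of DNA replication and mitosis moved with the histone genes at P20. Of all genes tested, 0.516% were lower in pair 1-2 and 2.2% higher in pair 3-4. Of 34 genes of S phase and DNA replication, 7 were lower in pair 1-2 and 22 higher in pair 3-4, with none called in the other direction. Mcm2, a subunit of the replicative helicase, differed by -2.89 ± 0.29 (SE, adjusted p = 0.000191) and 3.75 ± 0.30 (SE, adjusted p = 7.79e-06), and Uhrf1, which helps to keep DNA methylation through replication, by -3.15 ± 0.30 (SE, adjusted p = 0.000161) and 5.29 ± 0.34 (SE, adjusted p = 1.34e-06). Of 18 genes of mitosis, 11 were lower in pair 1-2 and 17 higher in pair 3-4. Mki67 differed by -4.32 ± 0.45 (SE, adjusted p = 0.000432) and 7.53 ± 0.52 (SE, adjusted p = 7.69e-06), and Top2a, a topoisomerase of dividing cells, by -4.63 ± 0.37 (SE, adjusted p = 3.84e-05) and 6.89 ± 0.41 (SE, adjusted p = 9.25e-07). Of 21 histone chaperones, 1 was lower in pair 1-2 and 7 higher in pair 3-4. Chaf1a, a subunit of the chromatin assembly factor that loads H3 and H4 at the replication fork, differed by -1.60 ± 0.31 (SE, adjusted p = 0.0248) and 2.96 ± 0.33 (SE, adjusted p = 7.8e-05).

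The replacement histones, which are made outside DNA replication too, were called in pair 3-4 alone. Of 11, 0 were called in pair 1-2 in either direction (0.516% of all genes lower, 0.138% higher) and 4 were higher in pair 3-4 (2.2%). The 4 were Cenpa, the H3 variant of centromeres (4.19 ± 0.70 SE, adjusted p = 0.00232), H2afx, the variant phosphorylated at DNA breaks (2.51 ± 0.45 SE, adjusted p = 0.0049), H2afz (1.81 ± 0.43 SE, adjusted p = 0.0243) and the linker histone H1fx (1.69 ± 0.36 SE, adjusted p = 0.0137). At P18, 0 genes of each of these lists were called. The list medians at P18 were -0.85 for mitosis, -0.204 for S phase, 0.0435 for chaperones and 0.0536 for replacement histones. Of the 4 testis histone genes of the clusters, Hist3h3 had no counts and Hist1h2ba was under 0.5 CPM in every library. The 2 tested, Hist1h1t and Hist1h2aa, were not called in either pair.

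Markers of other cells were checked beside these results. The 10 bulge stem cell markers were all detected, with Cd34 and Itga6 among them, and 1 was lower in each pair: Lgr6 in pair 1-2 (-1.64 ± 0.27 SE, adjusted p = 0.00826) and Krt24 in pair 3-4 (-2.11 ± 0.36 SE, adjusted p = 0.00263). The summed levels in P20 libraries were 4.91 to 40.9 CPM for 8 lymphocyte markers, 16.4 to 140.9 CPM for 8 macrophage, dendritic and mast cell markers and 52.3 to 327.6 CPM for 8 fibroblast and dermal papilla markers. They were 4.25 to 31.6 CPM for 6 endothelial markers and 711.7 to 5311 CPM for 7 suprabasal and cornified epidermis markers. The 5311 CPM were those of P20 Irx5KO 1, where Krt10 stood at 3034 CPM. No gene of these 5 lists was called in pair 1-2 (0.516% of all genes lower, 0.138% higher). All 7 suprabasal and cornified epidermis markers had a positive difference there, with a median log2 difference of 0.979. The share of all genes lower in pair 3-4 was 2.62%. In pair 3-4, 1 macrophage marker (Cd68, -2.04 ± 0.56 SE, adjusted p = 0.0496), 1 fibroblast marker (Pdgfra, -5.53 ± 1.51 SE, adjusted p = 0.0491) and 1 endothelial marker (Kdr, -7.55 ± 2.04 SE, adjusted p = 0.0494) were lower under the label Irx5KO, where the histone genes were higher. The part of these cells in the histone levels was not tested.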

How the data were processed

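The authors deposited 1 table per library from kallisto 0.46.2, per the labels' protocols, with estimated counts (expected counts), TPM values and effective lengths per transcript, per the file headers. The submitters' processing notes name mm10 and DESeq2. The effective length of a 500-base transcript was 401 in the 3 later-date P18 libraries and 404 in the other 11. Of 118489 transcripts, 116816 matched GENCODE; the 1673 others held 1.19% to 2.59% of the counts and were not used. Gene values are rounded sums of the estimated counts over transcripts. CPM are these values at a common library total, scaled by TMM factors from the 10536 genes with a mean of at least 8 CPM.

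Tests used edgeR 4.0.16 (R 4.3.3) quasi-likelihood on 24592 genes, with all 14 libraries in the main fits, Benjamini-Hochberg adjustment and a threshold of 0.05. Comparisons within and between the P20 pairs had a coefficient for each date and label. The P18 and pooled P20 comparisons had a term for the date within each age. Comparisons of the ages over all libraries of a label had no date term. Histone sums replaced their members' rows in separate fits of the same design. DESeq2 1.42.0 and limma 3.58.1 (voom) were alternatives. The scripts were tested on simulated data. In a P20 pair each group had 2 libraries.

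The members and the gene lists were chosen with earlier results of these data known. Values in every library are given for the 3 members of each class with the highest mean TPM. Members that went against most others have values for the pair in which they did. Full statistics are given for the largest rises and falls among members with a mean of at least 1 log2 CPM. They are also given for Mki67, Slbp, Npat and up to 4 genes of each other list. For Irx5, only CPM are given. At P18, libraries with the same replicate number deviated together, with correlations of 0.374, 0.175 and 0.275 over 10536 genes. They were taken as paired in the fit with a replicate block. Number 2 joins Irx5KO 2 of the later date (Ddx3y at 110.1 CPM) with WT 2 of the earlier date (0.534 CPM). That pair therefore differs in date, and in sex as Ddx3y marks it. The list of RNAs without a poly(A) tail had 0 of 8 genes in the tables.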

Additional observations from a re-analysis of the deposited data

Results flagged for a closer look

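The difference between the labels in P20 pair 3-4 minus that in pair 1-2 passed edgeR's test for every sum examined. On the log2 scale it was 5.14 for all histone genes, 4.14 for H1, 6.23 for H2A, 5.79 for H2B, 7.45 for H3 and 3.56 for H4. It also passed for the following 15 members. Among H1 genes it was 6.92 for Hist1h1a, 2.52 for Hist1h1c and 3.93 for Hist1h1e. In H2A it was 9.52 for Hist1h2ai, 6.77 for Hist1h2ao and 2.40 for Hist2h2aa2, and in H2B 2.60 for Hist1h2bc, 7.16 for Hist1h2bg and 5.59 for Hist2h2bb. In H3 it was 12.8 for Hist1h3b, 5.41 for Hist1h3i and 7.67 for Hist2h3b, and in H4 6.60 for Hist1h4b, 3.83 for Hist1h4d and 9.04 for Hist1h4k. Irx5 turned with the same pairs, against the labels in pair 3-4.

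In 2 groups of 4 libraries, 1 library stood far from the others by Dixon's criterion, which chance meets in about 1 of 20 groups. It was put to the sum of all members, each class sum and 3 members of each class, in both P20 groups. With that many looked at, some are met by chance alone, so these 2 are flags and no more. P20 WT 1 held an H4 sum of 619.1 CPM, the highest of the P20 WT libraries. P20 Irx5KO 4 held 280.3 CPM of Hist2h2aa2, the highest of the P20 Irx5KO libraries.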

How the results depend on the processing

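In pair 1-2 the count of members called went from 29 to 52 with no expression filter, 45 by DESeq2, 11 by limma voom and 16 with only the libraries compared in the fit, and ranged from 8 to 33 with 1 library left out. The summed log2 difference of pair 1-2 was -2.66 (adjusted p = 0.084) with only the libraries compared, and ranged from -3.08 to -2.16 with 1 library left out, losing its call without P20 Irx5KO 1 (-2.73) or Irx5KO 2 (-2.56). With 1 library left out, pair 3-4 kept 17 to 39 calls and a sum of 2.08 to 2.74, and the difference between pairs 37 to 48 calls and a sum of 4.61 to 5.53. At P18, 1 member was called with no filter, the sum ranged from 0.08 to 0.66 and the calls stayed at 0 with 1 library left out. The pooled P20 sum changed sign by limma voom (1.24, with 5 members called), with no date term (0.81) and without Irx5KO 1 (1.01), Irx5KO 2 (1.03) or WT 1 (0.37), in a range of -1.28 to 1.03 over libraries left out. From P18 to P20 in WT, limma voom called 9 members; WT 1 and 2 alone gave 23 calls and a sum of 0.40, WT 3 and 4 alone 9 calls, and leaving out 1 library -0.74 to 0.41, the highest without P18 WT 3. In Irx5KO, DESeq2 called 6 and limma voom 11; Irx5KO 1 and 2 alone gave 20 calls and a sum of -3.07, Irx5KO 3 and 4 alone 37 calls and 0.87. Leaving out 1 library gave -0.91 to 0.14, above 0 without P20 Irx5KO 1 (0.13) or Irx5KO 2 (0.14). The cause was not tested for any of these. Counts of members called in this section stand without the share of all genes called in the same setting. They do not set the members apart from all genes. The alternatives with parts of the P20 libraries were chosen after seeing the data, as was leaving out the 3 libraries rich in receptor genes (P18 WT 1, P18 WT 2 and P20 WT 2). That gave 33 calls in pair 1-2 and 41 in pair 3-4, left 0 at P18 and between the ages in WT, and changed the call of no sum. The replicate block gave 30 calls in pair 1-2, 37 in pair 3-4 and 0 at P18 and between the ages, and a P18 sum of 0.77 (adjusted p = 0.813). At P20 the same-number correlations were -0.00138, 0.337, 0.0813 and 0.27, so there the numbers do not pair the libraries, and only 2 of 4 numbers correlated best with their own.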
